A study of Mus musculus with 6 samples.

Results

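The adrenomedullin family and its receptor components are 7 genes, chosen by symbol from the 35485 genes of the deposited tables. Adm, Adm2 and Calca encode peptide ligands, Calcrl encodes the receptor they share, and Ramp1, Ramp2 and Ramp3 encode receptor activity-modifying proteins (RAMPs). The genes were put forward with the comparison of optic nerve crush (ONC) and sham already known, so their values in that comparison are given as a description without p-values.

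The retinas came from wild type C57BL/6 mice at 12 weeks of age. In the ONC group the optic nerve was crushed for 10 seconds with forceps, 2 mm from the globe, and in the sham group it was exposed but left intact. Retinas were taken 2 days later, and each of the 3 ONC and 3 sham samples was a pool of RNA from 6 retinas. The spread between samples is therefore a spread between pools. The whole retina was sequenced and the RGCs (retinal ganglion cells), whose axons were injured, are a small part of it. Fewer cells of a type and less RNA per cell cannot be told apart in such samples. For RGCs, the study cites earlier work in which their number had not fallen significantly by this day.

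Adrenomedullin is a peptide that widens vessels, tightens the endothelial barrier and takes part in vessel growth. Its relatives are adrenomedullin 2, also called intermedin, and calcitonin gene-related peptide (CGRP), a neuropeptide made from Calca. CALCRL is a G protein-coupled receptor that reaches the cell surface with a RAMP and signals mainly through Gs and cyclic AMP, and the RAMP sets which peptide it prefers. In the retina, as elsewhere, the pathway is best known from blood vessels, where CALCRL and RAMP2 are characteristic of endothelial cells, and mice that lack Adm, Calcrl or Ramp2 die as embryos with vascular defects. With RAMP1, CALCRL forms the CGRP receptor, and with RAMP2 or RAMP3 it forms adrenomedullin receptors. RAMP proteins also pair with the calcitonin receptor to form amylin receptors.

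The sequences 250 bases upstream of a RefSeq start of each of the 3 ligand genes are shown because these genes differ in how they stood between the groups below. They come from RefSeq (GRCm38.p6) and read 5′ to 3′ on the strand of the gene. The windows are chr15:89322470-89322719 (plus strand) for Adm2, chr7:114636358-114636607 (minus strand) for Calca and chr7:110627407-110627656 (plus strand) for Adm. Capitals mark a match to any of 3 motifs searched on either strand.
Adm2: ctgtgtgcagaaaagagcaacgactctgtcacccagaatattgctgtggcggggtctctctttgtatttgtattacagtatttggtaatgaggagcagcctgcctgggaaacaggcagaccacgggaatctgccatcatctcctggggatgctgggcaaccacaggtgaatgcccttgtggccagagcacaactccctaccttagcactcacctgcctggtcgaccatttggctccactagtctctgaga
Calca: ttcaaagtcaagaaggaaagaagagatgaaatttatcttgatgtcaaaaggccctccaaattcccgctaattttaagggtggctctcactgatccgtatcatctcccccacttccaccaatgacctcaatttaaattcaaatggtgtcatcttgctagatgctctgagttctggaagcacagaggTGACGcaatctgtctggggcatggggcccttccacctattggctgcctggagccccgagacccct
Adm: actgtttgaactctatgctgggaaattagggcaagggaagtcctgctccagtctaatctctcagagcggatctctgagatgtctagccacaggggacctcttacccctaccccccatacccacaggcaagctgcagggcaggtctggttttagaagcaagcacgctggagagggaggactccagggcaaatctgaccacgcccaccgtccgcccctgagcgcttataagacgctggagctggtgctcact
The motifs were ACGTG (core of the hypoxia response element), TGACTCA (AP-1 site) and TGACG (core of the cyclic AMP response element), and TGACG and ACGTG can overlap within TGACGTG, which did not occur here. Of 32851 upstream windows of the same length, 16.6% held ACGTG, 4.46% held TGACTCA and 17.8% held TGACG. The only match among the 6 members with a window was TGACG in Calca, on the strand of the gene, at positions -65 to -61 from the start. No window was held for Ramp2. A match of letters is a description and not a site of binding.

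Read depth limits these genes. Total exon reads per sample were between 17343945 and 20358008, and over all 6 samples the genes together held a small part of them, from 42 reads for Adm2 to 2916 for Ramp3. All exon reads of the 7 genes were uniquely mapped. RPKM divides the exon reads of a gene by its exon length and by all reads on genes, and levels are compared between genes on this scale only. Exon reads were 70.9% to 76.6% of all reads on genes in sham and 78.5% to 80.4% in ONC. CPM below stands for exon reads divided by the TMM-normalized library size, with no correction for length.

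Ramp3 was the most abundant of the 7 genes in every sample. Its RPKM was 17.8, 15.4 and 16.7 in the sham pools, in the order of their replicate numbers (kept throughout), and 14.5, 18.3 and 14.7 in the ONC pools. Its mean over all samples, 16.2, exceeded that of 73.6% of the 13670 genes tested. The other 6 genes lay in the lower part of the range, from the 26.0% point for Ramp2 to the 0.907% point for Adm2.

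The order of mean RPKM over all samples was Ramp3, Ramp2 (2.59), Calcrl (1.12), Calca (1.02), Ramp1 (0.545), Adm (0.533) and Adm2 (0.266). Ramp3 was above Ramp2 in 6 of 6 samples, by 4.93-fold to 7.73-fold. Ramp2 was above Calcrl in 6 of 6 samples, by 1.58-fold to 3.16-fold. Below these the ranges of neighbours over all 6 samples overlapped. Within a group, some did not. In the sham pools Adm (RPKM 0.237 to 0.598) lay above Adm2 (0 to 0.042), while in the ONC pools Adm exceeded Adm2 in 2 of 3. In the ONC pools Calca (1.113 to 1.727) lay above Ramp1 (0.452 to 0.638), while in the sham pools their ranges overlapped. Calcrl exceeded Calca in 2 of 3 sham samples and in 1 of 3 ONC samples.

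**Figure D1:**
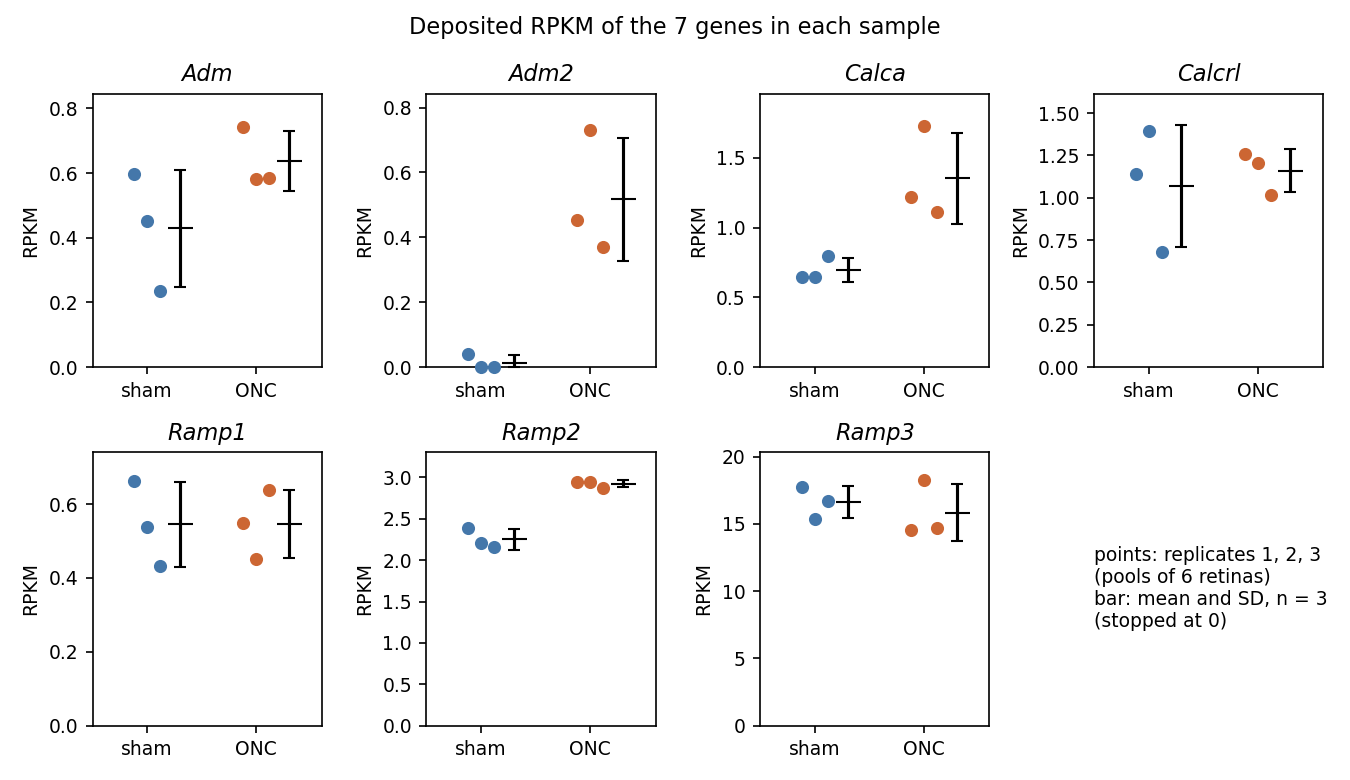
RPKM (y axis, linear, different in each panel) of the 7 genes in the 3 sham and 3 ONC samples, with points for replicates 1, 2 and 3 from left to right and a bar for the mean and SD (n = 3, lower end stopped at 0). The groups are apart in Adm2, Calca and Ramp2 and overlap in Adm, Calcrl, Ramp1 and Ramp3.

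Among the ligands, Adm2 was nearly absent from sham retinas and present in every ONC sample. The gene lies on chromosome 15 of GRCm38 from 89322972 to 89324731 in the files, with 3 exons and an exon length of 1046 bases. Exon reads numbered 1, 0 and 0 in the sham pools and 12, 19 and 10 in the ONC pools. The ranges of the groups were far apart. Of the reads, 5, 13 and 3 in the ONC pools spanned an exon junction, against 0 in each sham sample, and no read of any sample lay in its introns.

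The RPKM of Adm2 was 0.517 ± 0.189 after ONC and 0.0140 ± 0.0242 after sham surgery (SD, n = 3 in both). A count of 0, which allows up to 3 reads, put the limit for sham replicates 2 and 3 at an RPKM of 0.12 and 0.117. On the exact Poisson 95% interval, which covers counting error only, the upper ends in the sham pools were 0.232, 0.147 and 0.144. The lowest ONC value, 0.369, has an interval of 0.177 to 0.678 on that measure. The interval of sham replicate 1, with its 1 read, overlapped it. Relative to all reads after TMM normalization (which sets the typical gene at no change), the 41 ONC reads against 1 sham read gave a ratio of 35.3 with a 95% counting interval of 6.00 to 1430. The fitted log2 fold change of edgeR's quasi-likelihood model was 4.73 (standard error 1.15), a value that depends on how the fit treats counts of 0 and is no bound.

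Adm2 was the only one of the 7 genes that met the DEG (differentially expressed gene) thresholds of a false discovery rate under 0.1 and a fold change above 1.5, against 1.66% of all genes tested (0.827% higher and 0.834% lower in ONC). It passed the filter of a mean RPKM above 0.3 through the ONC group alone, so it had to differ, and nothing is read from that count. The log2 fold change was above 0 in all 16 alternative settings in which the gene was tested, and in 12 of them the gene was a DEG. These settings reuse the same reads, 41 in ONC and 1 in sham, which fixed the sign in advance, so the sign is no support. The call was lost without sham replicate 2 (log2 fold change 4.25), sham replicate 3 (4.29) or ONC replicate 2 (4.41). It was also lost with limma on log2(RPKM + 1), a scale that understates the change of low genes, where the value of 0.57 fell short of the fold change threshold. Its coding neighbours in RefSeq lie 7661 bases before it (Sbf1, 2267 to 2920 exon reads per sample) and 9742 bases after it (Miox, 0 to 2 reads), and no RefSeq gene overlaps it.

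Calca encodes both calcitonin and CGRP, through alternative splicing, and counts per gene cannot separate the products. It lies on chromosome 7 from 114631478 to 114636357 and has 6 exons in the files. Its exon reads numbered 22, 23 and 29 in the sham pools and 46, 64 and 43 in the ONC pools. The groups did not overlap, and ONC replicate 2 was the highest sample.

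The RPKM of Calca was 1.35 ± 0.328 after ONC and 0.695 ± 0.0878 after sham surgery (SD, n = 3 in both). Its log2 fold change was 0.83 (standard error 0.38, unadjusted 95% interval 0.04 to 1.61), which did not meet the DEG thresholds here or in any of the 18 alternative settings. Reads across exon junctions summed to 101 in ONC and 39 in sham. Its paralog Calcb, which encodes the beta form of CGRP, had 0 to 7 exon reads per sample.

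Adm, the adrenomedullin gene, lies on chromosome 7 from 110627669 to 110629819. Exon reads numbered 19, 15 and 8 in the sham pools and 26, 20 and 21 in the ONC pools. On the RPKM scale ONC replicates 2 and 3 (0.582 and 0.586) lay just under sham replicate 1 (0.598), so the groups overlapped. The means were 0.637 ± 0.0924 after ONC and 0.429 ± 0.182 after sham surgery (SD, n = 3 in both).

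For Adm the log2 fold change was 0.46 (standard error 0.51, 95% interval -0.61 to 1.53). Any fold change from 0.656 to 2.89 lies within this interval at the present depth. The value was above 0 in all 17 alternative settings, from 0.20 to 0.74. These settings reuse the same reads, so the constant sign is no separate support. A RefSeq long noncoding RNA, Gm28863, overlaps Adm, and since counting by strand is not stated, their reads cannot be told apart.

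**Figure D2:**
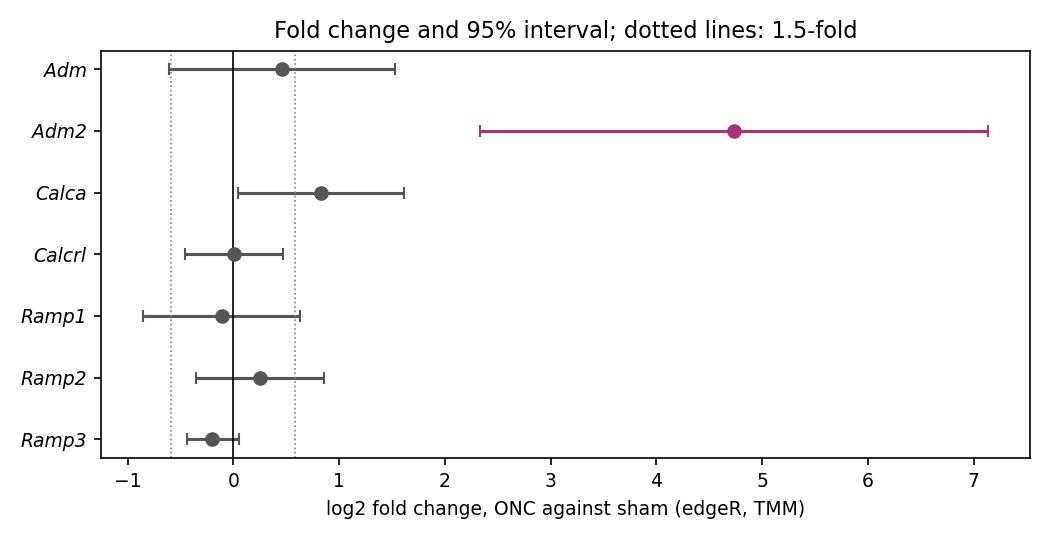
Log2 fold change of each of the 7 genes in ONC against sham (x axis) with its 95% interval from edgeR's quasi-likelihood fit after TMM normalization. Dotted lines mark a fold change of 1.5 in either direction. The interval of Adm2 lies between 2.33 and 7.13, that of Calca starts at 0.04, and the intervals of the other 5 genes include 0. The interval of Adm2 rests on sham counts of 1, 0 and 0 and is no bound. Its upper end is a fold change of 140, below the 1430 of the counting interval of the pooled ratio. The intervals are not adjusted for the number of genes. In the same fit, 2286 of the 13670 genes tested had an unadjusted p under 0.05 (edgeR).

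Calcrl, the shared receptor, lies on chromosome 2 from 84330626 to 84425266, with 16 exons. Exon reads numbered 124, 158 and 79 in the sham pools and 151, 142 and 125 in the ONC pools. Sham held both the highest and the lowest sample per read, and the groups overlapped. The RPKM was 1.16 ± 0.127 after ONC and 1.07 ± 0.360 after sham surgery (SD, n = 3 in both).

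The log2 fold change of Calcrl was 0.01 (standard error 0.22, 95% interval -0.46 to 0.47). Its sign was set by single samples, as it was 0.22 without sham replicate 2 and -0.20 without sham replicate 3. The alternative partner of the RAMPs, the calcitonin receptor Calcr, had 3 to 16 exon reads per sample. The RPKM of Calcrl exceeded that of Calcr by 6.32-fold to 41.1-fold.

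Of the RAMP genes, Ramp2 was higher in each ONC sample than in each sham sample. Exon reads numbered 48, 46 and 46 in the sham pools and 65, 64 and 65 in the ONC pools. These were 2.53 to 2.75 CPM in sham and 3.13 to 3.28 CPM in ONC, so that the groups lay close together without overlap. The RPKM was 2.92 ± 0.0422 after ONC and 2.25 ± 0.127 after sham surgery (SD, n = 3 in both).

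The log2 fold change of Ramp2 was 0.25 (standard error 0.29), and its 95% interval of -0.35 to 0.86 included 0. It was 0.38 with the scaling of RPKM, which moves the median of all genes tested from 0.01 to 0.13. The gene lies on chromosome 11 from 101246334 to 101248250.

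Ramp3 lies on chromosome 11 from 6658533 to 6677475 and had 450 to 499 exon reads in sham samples and 449 to 555 in ONC samples. It was the best measured of the genes, and the groups overlapped, with ONC replicate 2 the highest and the other ONC samples below the sham range in RPKM. The mean RPKM was 15.8 ± 2.11 after ONC and 16.6 ± 1.20 after sham surgery (SD, n = 3 in both). The log2 fold change was -0.20 (standard error 0.12, 95% interval -0.44 to 0.05).

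Intron reads on Ramp3 numbered 44 to 129 per sample, and 22.5% of its exon reads crossed a junction, against 37.9% to 61.7% in the other 6 genes. A RefSeq pseudogene, Gm11978, overlaps the start of Ramp3 and had 0 exon reads in the files. That count does not show that none of the reads given to Ramp3 came from the pseudogene. Ramp1, on chromosome 1 from 91179822 to 91225196, had 32 to 46 exon reads in sham and 34 to 50 in ONC. Its log2 fold change was -0.11 (standard error 0.35, 95% interval -0.85 to 0.63), and with the scaling of RPKM it was 0.01.

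The share of each RAMP in the summed RPKM of the 3 RAMP genes describes the mix of partners on a scale corrected for length. Ramp3 made up 85.3%, 84.9% and 86.6% of the sum in the sham pools and 80.6%, 84.3% and 80.7% in the ONC pools. Ramp2 made up 11.6% ± 0.488 (SD, n = 3) in sham and 15.2% ± 1.44 (SD, n = 3) in ONC, and Ramp1 2.80% ± 0.489 and 2.88% ± 0.724. The shares of Ramp2 and of Ramp3 did not overlap between the groups. In Ramp3, however, sham replicate 2 and ONC replicate 2 differed by less than 1 point. The 3 shares of a sample have a fixed sum, so these are not separate results. With 3 samples against 3, an exact permutation test cannot give a p under 0.1, so it cannot decide on them. The exact Poisson intervals of the RPKM of Ramp2, for counting error only, overlapped between the groups. They ran from 1.58 to 3.17 in sham and from 2.22 to 3.77 in ONC. The share of transcripts says nothing of which RAMP is in the same cell as the receptor.

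**Figure D3:**
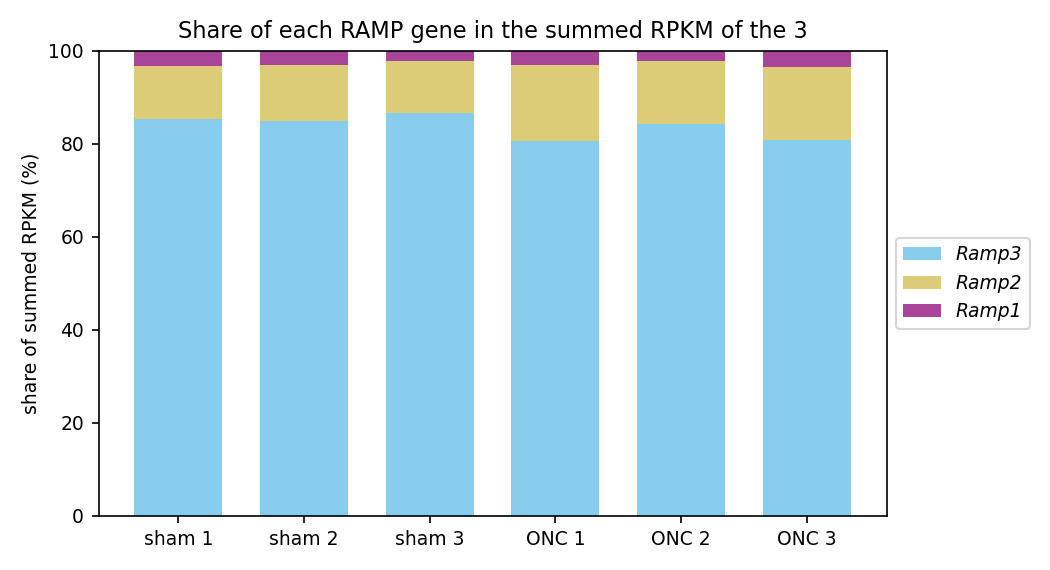
Share of Ramp1, Ramp2 and Ramp3 (y axis, percent) in their summed RPKM in each sample (x axis). Ramp3 takes 80.6% to 86.6% of every bar, and the Ramp2 part is 11.2% to 12.1% in sham and 13.6% to 16.3% in ONC.

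In all, 5 of the 7 genes had a log2 fold change above 0 and 2 below, with a median of 0.25 against 0.01 over all genes tested, of which 52.3% lay above 0. The sign of Calcrl and of Ramp1 turned with the setting. In CPM the groups did not overlap in 3 of the 7 genes, against 21.8% of all genes tested. All 3 (Adm2, Calca and Ramp2) were higher in ONC, as were 11.0% of all genes tested, and 0 were lower, as were 10.8%. The genes were put forward with this comparison in view, so these counts are not evidence for the family as a group.

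Other genes near the family in function were taken from lists. Of 5 peptide relatives and receptor neighbours, Iapp (amylin) had 0 reads in every sample, and Calcb and Calcr stayed under the filter. Crcp, which encodes a protein that couples the CGRP receptor to its signal, was measured at a mean RPKM of 19 ± 1.85 after ONC and 16.1 ± 1.30 after sham surgery (SD, n = 3 in both), and its log2 fold change of 0.12 ± 0.10 (SE) did not pass edgeR's test (adjusted p = 0.59). Cxcr7 (now Ackr3), a receptor that binds and clears adrenomedullin and chemokines, had 27 to 49 exon reads in sham and 39 to 90 in ONC. Its log2 fold change of 0.54 ± 0.36 (SE) did not pass either (edgeR, adjusted p = 0.482).

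Of 9 genes for peptide processing and clearance, 8 were tested, 0 were DEGs and the median log2 fold change was -0.02. Pcsk2, a convertase that cuts prohormones, fell by 0.44 on the log2 scale (SE 0.10, edgeR, adjusted p = 0.0172), below the fold change threshold. A false discovery rate under 0.1 with no fold threshold was met by 6.09% of all genes tested. Pam, which adds the amide group that adrenomedullin and CGRP need, had a log2 fold change of -0.04 (adjusted p = 0.828, edgeR). Cpe, a carboxypeptidase of secretory granules, had the highest level of the list, with an RPKM of 722 ± 32.5 after ONC and 650.0 ± 16.3 after sham surgery (SD, n = 3 in both). After TMM normalization its log2 fold change was 0.03 (SE 0.05) and did not pass the test (adjusted p = 0.827, edgeR). The log2 fold changes of Pcsk1, Furin, Ide and Ece1 were -0.01, -0.01, -0.15 and -0.12, and none passed the test (lowest adjusted p = 0.237, edgeR). Mme (neprilysin), which degrades such peptides, had 11 to 31 exon reads per sample and stayed under the filter.

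Of 22 genes of cyclic AMP signalling, 21 were tested and 0 were DEGs, with a median log2 fold change of -0.11. Adcy2, an adenylyl cyclase, had a log2 fold change of -0.28 (adjusted p = 0.0365), and Rapgef4, an exchange factor activated by cyclic AMP, of -0.37 (adjusted p = 0.0469, edgeR). Both fell, below the fold change threshold. The list's most abundant gene was Prkar1a, a regulatory subunit of protein kinase A, at a log2 fold change of -0.03 (adjusted p = 0.857, edgeR).

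Adm is a known target of hypoxia-inducible factors, and a list of 21 hypoxia-inducible genes and regulators was followed beside it. Of 20 tested, 0 rose and 4 fell at a false discovery rate under 0.1, with a median of -0.11. They were Hk2, Pgk1, Bnip3 and Pfkfb3. Hk2 (hexokinase 2) was the only DEG, at -0.60 ± 0.09 (SE) on the log2 scale (edgeR, adjusted p = 0.000184). It was not a DEG in 6 of the alternatives, among them the scaling of RPKM and the fits without sham replicate 2 or ONC replicate 2. Aldoa, an enzyme of glycolysis and the most abundant of the list, had a log2 fold change of -0.06 (adjusted p = 0.603, edgeR).

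Markers of the cells that could carry these transcripts were compared in the same fit. Of 14 tested endothelial markers 0 passed the test, with a median of -0.04, and their summed RPKM was 46.2 to 52.2 in sham and 47.0 to 54.0 in ONC. The log2 fold changes of these endothelial markers ran from -0.35 to 0.78. Kdr, a receptor for vascular endothelial growth factor, was the most abundant (mean RPKM 20.3 over all samples) and weighed heavily in the sum. It had a log2 fold change of -0.05 (adjusted p = 0.833, edgeR). Of 7 tested pericyte and smooth muscle markers 0 passed, and Rgs5, the most abundant, had a log2 fold change of -0.24 (adjusted p = 0.349, edgeR). Of 8 Muller glia and astrocyte markers 0 passed, and Glul (glutamine synthetase) had a log2 fold change of -0.13 (adjusted p = 0.206, edgeR).

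Some markers of microglia and macrophages rose after ONC. The summed RPKM over 10 such genes was 14 to 17.6 in sham and 25.8 to 29.1 in ONC, and 4 of 9 tested genes were DEGs, all upwards. These were C1qa and C1qb (complement components), Itgam (an integrin subunit) and Cd68 (a lysosomal protein of phagocytes), with log2 fold changes of 0.59, 0.81, 0.76 and 1.5 (adjusted p = 0.0931, 0.00633, 0.0903 and 0.0912, edgeR). C1qb and C1qa were the most abundant of the list (mean RPKM 6.91 and 6.03 over all samples) and weighed heavily in the sum. For Cd68 the groups overlapped, as ONC replicate 1 (RPKM 0.941) lay below sham replicate 1 (1.122). The count of DEGs on this list was 1 without sham replicate 2, ONC replicate 2 or ONC replicate 3 and with limma on log2(RPKM + 0.1). The count of DEGs was 2 without sham replicate 3, with limma on log2(RPKM + 1) and with the replicate number as a block. Aif1, a microglial marker of low level, had a log2 fold change of -0.32 (adjusted p = 0.845, edgeR). Over 10 RGC markers the summed RPKM was 453 to 471 in sham and 340.0 to 357 in ONC. Of these genes 5 were DEGs downwards (Rbpms, Sncg, Nefh, Pou4f1 and Pou4f2), with log2 fold changes from -1.39 to -0.75. Of the 10, 8 fell and 1 rose at a false discovery rate under 0.1. The marker that rose was Slc17a6, a glutamate transporter, at 0.26 on the log2 scale (adjusted p = 0.0525, edgeR), and Isl1, a transcription factor, stood at -0.02 (adjusted p = 0.916, edgeR). The most abundant RGC marker, Nefl, had a log2 fold change of -0.53 (adjusted p = 4.07e-05, edgeR). The part of either cell type in the values of Adm2, Calca and Ramp2 was not tested.

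The retinal label held, with the photoreceptor gene Sag (arrestin) at a mean RPKM of 2440 after sham surgery and 3470 after ONC. Of 6 rod markers, Sag and Pde6b (a phosphodiesterase subunit) passed the false discovery rate upwards without reaching the fold change threshold, at log2 fold changes of 0.39 and 0.18 (adjusted p = 2.14e-05 and 0.034, edgeR). Of 6 pigment epithelium markers 0 passed, with a summed RPKM of 46.4 to 73.7 over all samples, and Ttr was the most abundant (log2 fold change -0.07, adjusted p = 0.831, edgeR).

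**Figure D4:**
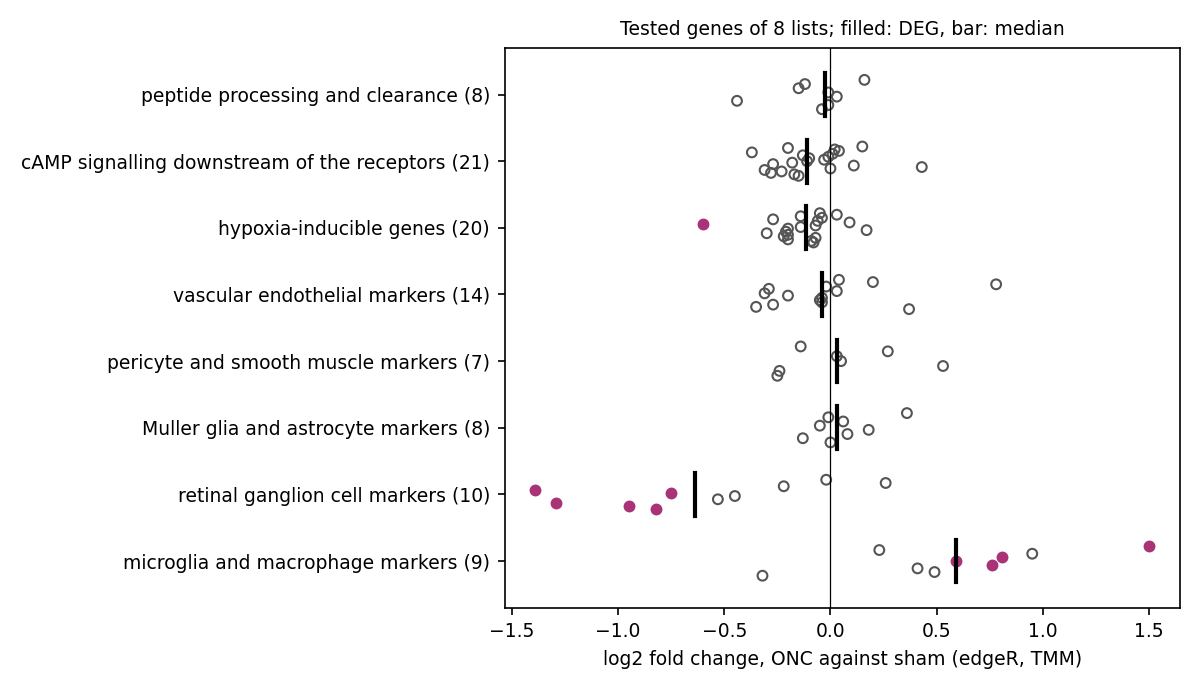
Log2 fold change in ONC against sham (x axis) of the tested genes of 8 lists (y axis, number of genes in brackets), with filled points for DEGs, open points for other genes and a bar at the median of each list. The lists of peptide processing, receptor signalling, hypoxia, vessels and Muller glia have medians between -0.11 and 0.03, the RGC markers have a median of -0.64 and the microglia markers of 0.59.

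The genes whose profile over the 6 samples was most like that of Adm were LOC100862134, Rrp7a, Frzb, Adssl1 and Asphd1, among 11972 genes with a mean RPKM above 1 in either group. Pearson's r of log2 normalized counts was 0.974 to 0.979. For Calcrl they were Taf5l, Usp49, Vip, Tmem27 and Zfp238, at 0.967 to 0.980. With 6 samples, 79 genes exceeded an r of 0.9 with Adm and 52 with Calcrl. The points share their libraries, and no more than a likeness of 6 values is meant.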

How the data were processed

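Whole-retina RNA-seq of 3 ONC and 3 sham samples was analysed. Groups and replicate numbers come from the sample labels. Mapping by the authors was done in CLC Genomics Workbench 6.0.1, with at most 2 mismatches. The deposited counts are raw reads per gene, total or unique, over exons or the entire gene. The deposited RPKM divides total exon reads by exon length and by all reads on genes, introns included. The study names mm9, but the positions match GRCm38, as 99.9% of 29899 genes overlapped the RefSeq gene of the same symbol.

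Genes with a mean RPKM above 0.3 in either group were kept (13670), and total exon reads were compared with edgeR 4.0.16 (TMM, quasi-likelihood test, condition only) in R 4.3.3, adjusted by Benjamini-Hochberg over all of them. The per-gene test of the study on RPKM was not used because whole counts are deposited. The DEG thresholds, those of the study, were a false discovery rate under 0.1 and a change above 1.5-fold. Standard errors are the log2 fold change over the root of the F statistic. Poisson and binomial 95% intervals cover counting error only and leave out the spread between pools. No molecular identifiers were used, so repeated reads of the same molecule cannot be told from reads of separate molecules.

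The members and the 11 lists were chosen with earlier results of these data known. The genes named are all members, all genes of the first 2 lists, and of the other lists the DEGs and the most abundant gene, plus the 5 genes most like Adm and Calcrl. Some genes of the lists are not reported here by name. Genes of those lists named beside these, Aif1, Isl1, those that passed the false discovery rate alone and the genomic neighbours, were chosen after their values were seen. Cxcr7 was found through RefSeq synonyms of Ackr3. Alternatives were other scalings, DESeq2 1.42.0, limma 3.58.1 on log2(RPKM + 0.1) and log2(RPKM + 1), other filters, counts of unique exon reads or of total gene reads, a replicate block and leaving out each sample. Tables and figures used Python 3.11.15, pandas 2.3.3, scipy 1.17.1 and matplotlib 3.10.9.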

Additional observations from a re-analysis of the deposited data

How the results depend on the processing

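Adm, Calca and Ramp2 kept a positive log2 fold change and Ramp3 a negative one in every setting in which they were tested. That of Adm2 was also positive throughout, a sign that its reads fixed in advance. In Calca and Ramp2 each ONC sample was above each sham sample in CPM, which left little room for another sign. All settings reuse the same reads, so none of these constant signs is support. For Adm2 the log2 fold change was 2.41 with limma on log2(RPKM + 0.1), 0.57 with log2(RPKM + 1), and 4.25 to 6.70 when 1 sample was left out. The pseudocount of 1 is above all of its RPKM values. For Calca it was 0.47 with log2(RPKM + 1), and for Ramp2 0.38 with the scaling of RPKM or with total gene reads and 0.36 with log2(RPKM + 0.1). A mean RPKM above 1 left out Adm, Adm2 and Ramp1, and filterByExpr left out Adm2.

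The number of DEGs was 227 (113 up and 114 down). It was 350 with the scaling of RPKM (263 up), 349 with total gene reads (236 down), and 147 with log2(RPKM + 1), where 34 were down, against 47 down with log2(RPKM + 0.1). Leaving out 1 sample gave 153 to 353, with 71 to 175 up and 78 to 178 down. It was lowest without sham replicate 2 and highest without ONC replicate 1. With the replicate block it was 222. Same-numbered samples did not deviate together (correlations of -0.047, -0.033 and 0.003), and the block changed no call of a member. The log2 fold change of Adm was then 0.50 and that of Adm2 4.73. The cause of these shifts was not tested. Counts of at most 65 exon reads per sample limit Adm, Adm2, Calca, Ramp1 and Ramp2.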
